A study of Mus musculus with 4 samples.

Results

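The genes described here encode the major histocompatibility complex (MHC) of the mouse and its antigen presentation partners. They were taken as every probe of the array whose gene name starts with H2- or is B2m, Tap1, Tap2, Tapbp, Cd74, Ciita or Nlrc5, which gave 48 gene names read by 63 probes, of 30175 gene names and 39429 probes in all. Livers of 8 male mice, all 2 months old, untreated and of mixed strain, were compared as total RNA: 4 control mice and 4 whose liver carried a conditional NIPP1 knockout, the nuclear protein phosphatase 1 regulator that Ppp1r8 encodes. Each of 4 two-colour arrays (replicates 1 to 4) carried 1 control and 1 knockout mouse, with the knockout RNA in Cy3 on replicates 1 and 2 and in Cy5 on replicates 3 and 4. The sources used here name neither the Cre line, the deleted part of Ppp1r8 nor the MHC haplotypes of the mice.

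MHC class I molecules are a heavy chain paired with beta-2 microglobulin that shows peptides from inside the cell to CD8 T cells. Nearly all nucleated cells carry the classical (class Ia) heavy chains H2-K1 and H2-D1, while the nonclassical (class Ib) H2-Q, H2-T and H2-M genes are a family of close copies with narrower roles. MHC class II molecules show peptides taken up from outside to CD4 T cells and are made in the liver mainly by macrophages, dendritic cells and B cells rather than by hepatocytes.

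All ratios are log2 knockout over control, and the test was limma with a dye term over the 20833 probes that stood well above background in 3 or more mice of 1 genotype, with Benjamini-Hochberg adjustment over all of them. Of the 63 member probes 39 were tested, and each of the 39 was well above background in all 8 mice. The tested probes were 5 of 5 for class Ia (2 of them for H2-K2, a gene of the K region that RefSeq lists as a transcribed pseudogene), 19 of 35 for class Ib, 7 of 14 for class II with Cd74, 4 of 4 for class I loading, 2 of 3 for regulators and both probes of the region's neighbour genes H2-Ke2 and H2-Ke6. Both Ppp1r8 probes were lower on all 4 arrays, at -0.68 ± 0.07 and -0.65 ± 0.08 (SD, n = 4). Each had a limma adjusted p of 0.0519, so the targeted gene itself fell just short of a threshold of 0.05. Hepatocyte markers (Alb, Apoa1, Ttr, Cps1, Hnf4a and Cyp2e1) were above background in all 8 mice, 6 of 6. The share of spots well above background ran from 52.7% to 56.3% over arrays and dyes, no member spot was saturated, and 10 repeat spots of Tap1, H2-M2 and H2-K1 on an array had an SD of 0.02 to 0.05, so arrays differed by more than spots did.

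No member probe passed an adjusted p of 0.05 in limma, where 0.187% of all tested probes (39 of 20833) did. At an unadjusted p under 0.05 there were 13 members higher in the knockout and 0 lower, against 12.9% and 10.3% of all tested probes. At an adjusted p of 0.1, a second threshold, 4 members were called higher and 0 lower, where 4.05% of all tested probes were called higher and 2.68% lower. All 4 were class Ib probes. That number depended on the processing: 1 member, the H2-Q10 probe A_55_P2037343, was under 0.1 with no dye term or with normexp fitted on every spot, and 10 members were with median centring in place of loess, where 9.3% of all tested probes were. Ratios above 0 on all 4 arrays were found in 11 of 39 members and 13.4% of all tested probes, and 10 of those 11 were among the 24 class I heavy chain probes. A single member, H2-Ke6, was below 0 on all 4 arrays, where 11.1% of all tested probes were.

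**Figure D1:**
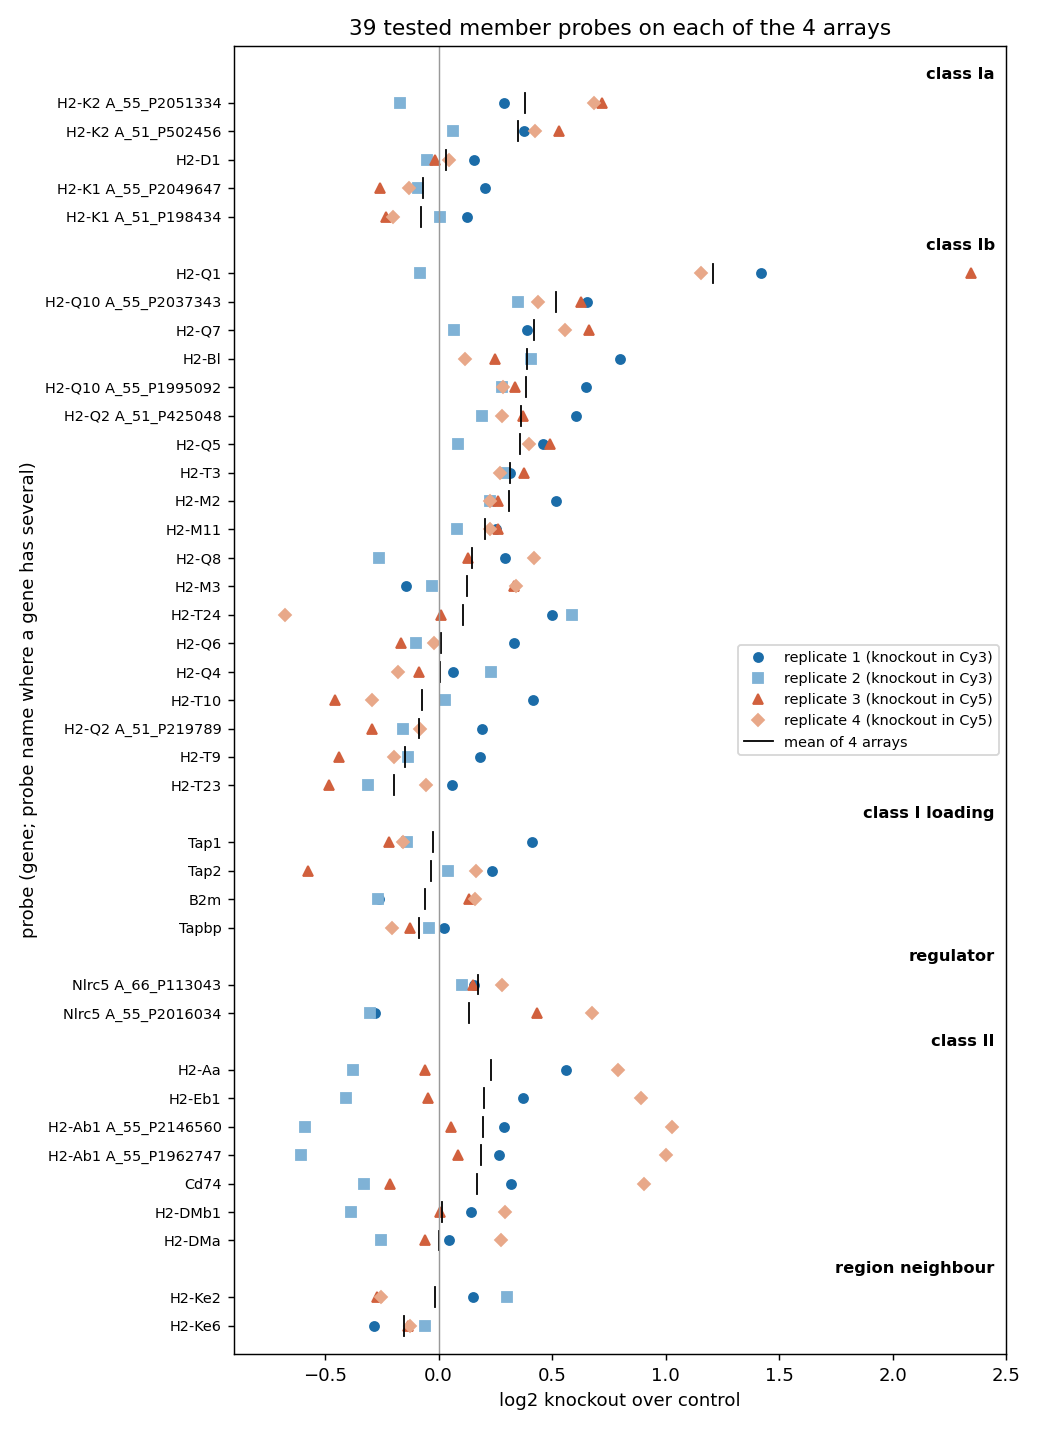
Log2 knockout over control (x axis) of the 39 tested member probes (y axis), grouped by class, with 1 symbol per array and a bar at the mean of the 4 arrays. The H2-Q10, H2-T3 and H2-Bl symbols all lie above 0, H2-K1 and H2-D1 straddle 0, and the class II symbols keep 1 order of arrays, with replicate 4 highest and replicate 2 lowest in each of the 7 rows.

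Class I probes have sequences in common, which bears on how far each ratio belongs to the gene on its label. The sequences below, from the array files, are pairs of probes named for different genes, and the capitals mark shared bases. The H2-Q10 and H2-T3 probes aligned with 52 identical of 60 bases and the H2-K2 and H2-Q7 probes with 49 of 56, and 30 bases around the longest shared run (22 and 28 bases) are shown of each. The second H2-Q10 probe and an H2-Q2 probe aligned with 45 of 50 identical bases, and an H2-K1 and the H2-T23 probe with 39 of 44, and these are shown whole with every aligned identical base in capitals. On mm9 the 8 probes lie on chromosome 17, at 35611449 to 35611508 for H2-Q10, 36322516 to 36322575 for H2-T3, 34111941 to 34112000 for H2-K2, 35580315 to 35580374 for H2-Q7, 35610036 to 35610095 for the second H2-Q10 probe, 35460007 to 35460066 for H2-Q2, 34133984 to 34134043 for H2-K1 and 36167338 to 36167574 for H2-T23.
H2-Q10, A_55_P2037343: gagtTTGTGGAGGAAATAAATGGCAGatgg
H2-T3, A_55_P1956048: agtaTTGTGGAGGAAATAAATGGCAGcatg
H2-K2, A_51_P502456: aTCTCCTGTGACATCCAGAGCCCTCAGTTt
H2-Q7, A_55_P1978511: cTCTCCTGTGACATCCAGAGCCCTCAGTTc
H2-Q10, A_55_P1995092: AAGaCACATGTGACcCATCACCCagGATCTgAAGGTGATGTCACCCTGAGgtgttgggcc
H2-Q2, A_51_P425048: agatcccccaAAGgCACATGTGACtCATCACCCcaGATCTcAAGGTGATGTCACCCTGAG
H2-K1, A_55_P2049647: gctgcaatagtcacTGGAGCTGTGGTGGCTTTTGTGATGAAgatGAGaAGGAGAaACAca
H2-T23, A_51_P237754: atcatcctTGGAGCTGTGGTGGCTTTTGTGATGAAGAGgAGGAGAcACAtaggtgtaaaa

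Most of these pairs had ratios near each other, and so did some probes with no such alignment. H2-Q10 (A_55_P1995092) and H2-Q2 differed by 0.04 on average over the 4 arrays and by at most 0.09. H2-K2 (A_51_P502456) and H2-Q7 differed by 0.07 on average, H2-K1 and H2-T23 by 0.17 and H2-Q10 (A_55_P2037343) and H2-T3 by 0.20, with up to 0.34 on 1 array. H2-D1 and the other H2-K2 probe, alike in 27 of 32 aligned bases, differed by 0.41 on average and by up to 0.74. Over the 10 aligned pairs of tested class I probes of different genes the median of this average difference was 0.13 (0.04 to 0.41), and over the 262 other pairs it was 0.37 (0.04 to 1.44). H2-K2 (A_51_P502456) and H2-Q5, which were not aligned, differed by 0.04. The H2-Ab1 probes, 50 of 51 bases alike and of 1 gene, differed by 0.02. Runs of at least 20 bases were also shared with probes of gene models outside the list: H2-K1 with LOC100044874, H2-Q2 (A_51_P219789) with LOC547349, and H2-Q6 and H2-T23 with Gm11127. How much of each signal came from RNA of a related gene or of another H2 allele was not tested.

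H2-Q10, a class I heavy chain secreted by the liver, had 2 of the 4 probes with an adjusted p under 0.1. With A_55_P2037343, the 4 knockout mice had log2 levels of 16.56, 16.40, 16.39 and 16.36 and the 4 control mice 15.90, 16.05, 15.77 and 15.92 (replicates 1 to 4). Every knockout mouse was above every control mouse. Its log2 ratios were 0.66, 0.35, 0.63 and 0.44, and the fitted ratio was 0.52 ± 0.08 (SE, limma, adjusted p = 0.0658). The other H2-Q10 probe, in another stretch of the gene, had ratios of 0.65, 0.28, 0.34 and 0.28 and a fitted ratio of 0.39 ± 0.08 (SE, limma, adjusted p = 0.097), again with no overlap of the groups. Of all tested probes 7.13% had every knockout mouse above every control mouse, and 9 of the 39 members did. No H2-Q10 ratio passed 0.1 once any 1 array was left out, with A_55_P2037343 then at 0.44 to 0.59 and its limma adjusted p at 0.139 to 0.271, and no other member passed 0.1 with 3 arrays either. Few probes of any gene did: 1.06% of all tested probes passed 0.1 without replicate 1, 0.144% without replicate 2, and none without replicate 3 or 4.

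H2-Q7, a gene of the Qa-2 antigen, had ratios of 0.39, 0.07, 0.66 and 0.56, and a fitted ratio of 0.42 ± 0.07 (SE, limma, adjusted p = 0.0809, or 0.17 with no dye term). Its knockout levels of 16.24, 16.10, 16.28 and 16.26 were all above its control levels of 15.85, 16.03, 15.62 and 15.71, by the least on replicate 2. H2-T3, a gene of the thymus leukaemia antigen, had the smallest spread of the 4 probes, with ratios of 0.31, 0.29, 0.38 and 0.27 and a fitted ratio of 0.31 ± 0.05 (SE, limma, adjusted p = 0.0709). The H2-T3 levels were 7.57, 7.61, 7.87 and 7.89 in knockout and 7.26, 7.32, 7.50 and 7.62 in control mice, so the highest control lay above the lowest 2 knockouts. A second H2-T3 probe was well above background in 2 knockout mice and 0 control mice and was not tested. The tested H2-T3 probe is the one that resembles the H2-Q10 probe shown above.

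Other class I probes lay just outside the 0.1 threshold, all with positive ratios. These were H2-K2 (A_51_P502456) at 0.35 ± 0.07, H2-Bl at 0.39 ± 0.08, H2-M2 at 0.31 ± 0.07 and H2-Q5 at 0.36 ± 0.08 (SE), with limma adjusted p-values of 0.1, 0.103, 0.105 and 0.107. In each of these 4 probes every knockout mouse was above every control mouse. The brighter H2-K2 probe, A_55_P2051334, had a mean log2 intensity of 16.35. Its ratios were 0.29, -0.17, 0.72 and 0.68, and its groups overlapped. Its fitted ratio was 0.38 ± 0.09 (SE, limma, adjusted p = 0.1165). The 4 H2-Q5 ratios were 0.46, 0.08, 0.49 and 0.40, and replicate 2 was lowest. The H2-Bl ratios were 0.80, 0.41, 0.25 and 0.12, so both arrays with the knockout in Cy3 were above both with it in Cy5. A second H2-M2 probe was well above background in 0 of 8 mice, at a mean log2 intensity of 6.07 against 14.24 for the tested one. Ratios of the tested H2-M2 probe differed by 0.07 on average from those of H2-Q2 (A_51_P425048), with which it was not aligned. They differed by 0.08 from those of H2-Q10 (A_55_P1995092), also not aligned with it. Whether the tested probe reads RNA of H2-M2 was not tested. Probes named for H2-Q2 differed. A_51_P425048, which resembles an H2-Q10 probe, gave 0.60, 0.19, 0.37 and 0.28. A_51_P219789 gave 0.19, -0.16, -0.29 and -0.08. On mm9 A_51_P425048 starts at 35460007 and A_51_P219789 at 35482113, and the H2-Q1 probe lies between them at 35461859. Whether A_51_P425048 reads RNA of H2-Q2 or of H2-Q1 was not tested.

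H2-Q1 had the largest fitted ratio of the 24 tested class I probes and also the widest spread over arrays. Its log2 levels were 10.29, 9.38, 10.60 and 9.65 in the 4 knockout mice and 8.87, 9.46, 8.26 and 8.49 in the 4 control mice. The groups overlapped through replicate 2, where the knockout mouse was the lowest of its group and the control mouse the highest of its own. The ratios were 1.42, -0.08, 2.34 and 1.16, and the fitted 1.21 ± 0.33 did not pass (SE, limma, adjusted p = 0.141). Replicates 2 and 3 both lay more than 1 from the median of the 4 ratios, replicate 2 by 1.37, and no other tested member had an array more than 1 from its median. The probe lies at 35461859 to 35461918 on chromosome 17 (mm9) and had no run of 20 bases in common with another probe.

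The classical heavy chains straddled 0. H2-K1, with the probe measured in 10 spots, had knockout levels of 15.59, 15.25, 15.18 and 15.20 against control levels of 15.46, 15.24, 15.41 and 15.40. The groups overlapped, the ratios were 0.13, 0.01, -0.23 and -0.20, and the fitted ratio was -0.08 ± 0.05 (SE, limma, adjusted p = 0.424). H2-D1 had ratios of 0.16, -0.05, -0.02 and 0.05 and a fitted ratio of 0.03 ± 0.06 (SE, limma, adjusted p = 0.761). H2-T23, the Qa-1 molecule that inhibits natural killer cells through its peptide, had ratios of 0.06, -0.31, -0.48 and -0.05, and its probe is the one like the H2-K1 probe A_55_P2049647 (0.21, -0.09, -0.26 and -0.13).

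**Figure D2:**
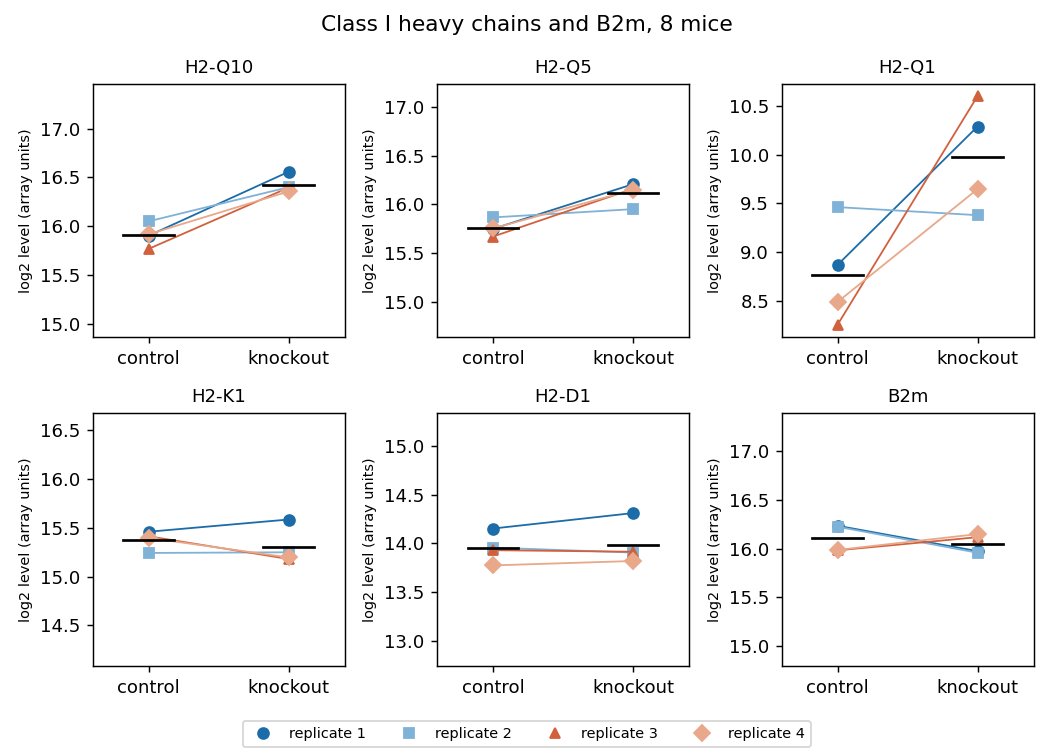
Log2 levels (y axis, array units, the same span in each panel) of 6 class I genes in the 4 control and 4 knockout mice, where a line joins the mice that shared an array and bars are group means. The knockout levels of H2-Q10 and H2-Q5 all lie above the control levels, H2-Q1 overlaps through replicate 2, and H2-K1, H2-D1 and B2m overlap throughout.

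Of the remaining class Ib probes, H2-M11 had 4 positive ratios (0.21 ± 0.05, SE, limma, adjusted p = 0.132). H2-M3, which presents formylated bacterial peptides, was at 0.13 ± 0.05 (SE), with -0.14 and -0.03 on the arrays with the knockout in Cy3 and 0.33 and 0.34 on the others. H2-Q4, H2-Q6, H2-Q8, H2-T9, H2-T10 and H2-T24 had fitted ratios from -0.15 for H2-T9 to 0.15 for H2-Q8. H2-T24 ran from 0.59 on replicate 2 to -0.68 on replicate 4. The 16 class Ib probes that were not tested were well above background in at most 2 of 8 mice, and they included H2-M1, H2-M5, H2-M9, H2-T18 and the 6 probes of the H2-M10 genes, a group known from the vomeronasal organ.

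Partners of the class I heavy chain had fitted ratios between -0.09 and -0.03, none past the test. B2m, the light chain itself, had ratios of -0.26 and -0.27 where the knockout was in Cy3 and 0.13 and 0.16 where it was in Cy5. The sign of its ratio followed the dye, and its fitted ratio was -0.06 ± 0.05 (SE, limma, adjusted p = 0.501). With the scanner software's processed signals the B2m ratios were instead -0.04, -0.10, -0.0071 and -0.08, all below 0. Tap1 and Tap2, which form the pump that carries peptides into the endoplasmic reticulum, had ratios of 0.41, -0.14, -0.22 and -0.16 and of 0.24, 0.04, -0.58 and 0.16. Replicate 1 was the high array of Tap1 and replicate 3 the low array of Tap2. Tapbp, or tapasin, which bridges that pump and the heavy chain, had 0.02, -0.04, -0.13 and -0.21.

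Nlrc5, the activator of class I genes, was read by 2 probes with unlike spread. The brighter probe had -0.28 and -0.30 with the knockout in Cy3 and 0.43 and 0.67 with it in Cy5, and a fitted ratio of 0.13 ± 0.06 (SE, limma, adjusted p = 0.283). The dimmer probe had 0.16, 0.10, 0.15 and 0.28 and a fitted ratio of 0.17 ± 0.05 (SE, limma, adjusted p = 0.155), with every knockout mouse above every control mouse. Its mean log2 intensity was 6.67, against 8.66 for the brighter probe. That is close to the 6.48 of an H2-M9 probe too near background to be tested. With the processed signals the dimmer probe was at 0.62 ± 0.10 (SE, limma, adjusted p = 0.0859), over 3 times the log2 ratio and past 0.1. Ciita, the activator of class II genes, was well above background in 0 of 8 mice and was not tested. Its only probe has a run of at least 20 bases in common with probes of Cbln2, Odz1 and Prg4.

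Class II genes varied between mice more than between genotypes, and they varied together. H2-Ab1, the beta chain of I-A, had log2 levels of 13.13, 11.81, 11.66 and 12.38 in the knockout mice and 12.84, 12.40, 11.61 and 11.35 in the control mice. The 2 mice on replicate 1 were the highest of their genotypes, and the ranges overlapped almost whole. The ratios were 0.29, -0.59, 0.05 and 1.03, which gave 0.19 ± 0.23 (SE, limma, adjusted p = 0.653).

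H2-Aa, the alpha chain of I-A, had ratios of 0.56, -0.38, -0.06 and 0.79. H2-Eb1, the beta chain of I-E, had 0.37, -0.41, -0.05 and 0.89. Cd74, the invariant chain that guards the peptide groove until loading, had 0.32, -0.33, -0.21 and 0.90, and lies outside the MHC, on chromosome 18. The genes of these chains were thus all highest relative to control on replicate 4 and all lowest on replicate 2. H2-DMa and H2-DMb1, the subunits of the peptide editor H2-DM, kept that order over a smaller range, with 0.04, -0.25, -0.06 and 0.28 for H2-DMa and 0.14, -0.38, 0.01 and 0.29 for H2-DMb1.

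None of the 7 class II probes passed the test, with limma adjusted p-values of 0.582 to 0.996. All 7 ratios were positive on replicates 1 and 4 and negative on replicate 2. Over the 8 mice the levels of a class II probe spanned 0.87 to 1.83, and 6 of the 7 spanned more than 1, as did 7.99% of all tested probes. H2-DMb2, H2-Ea-ps, H2-Eb2 and the 3 probes of H2-Ob were well above background in at most 1 of 8 mice and H2-Oa in 3, so the inhibitory H2-DO pair was not tested.

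**Figure D3:**
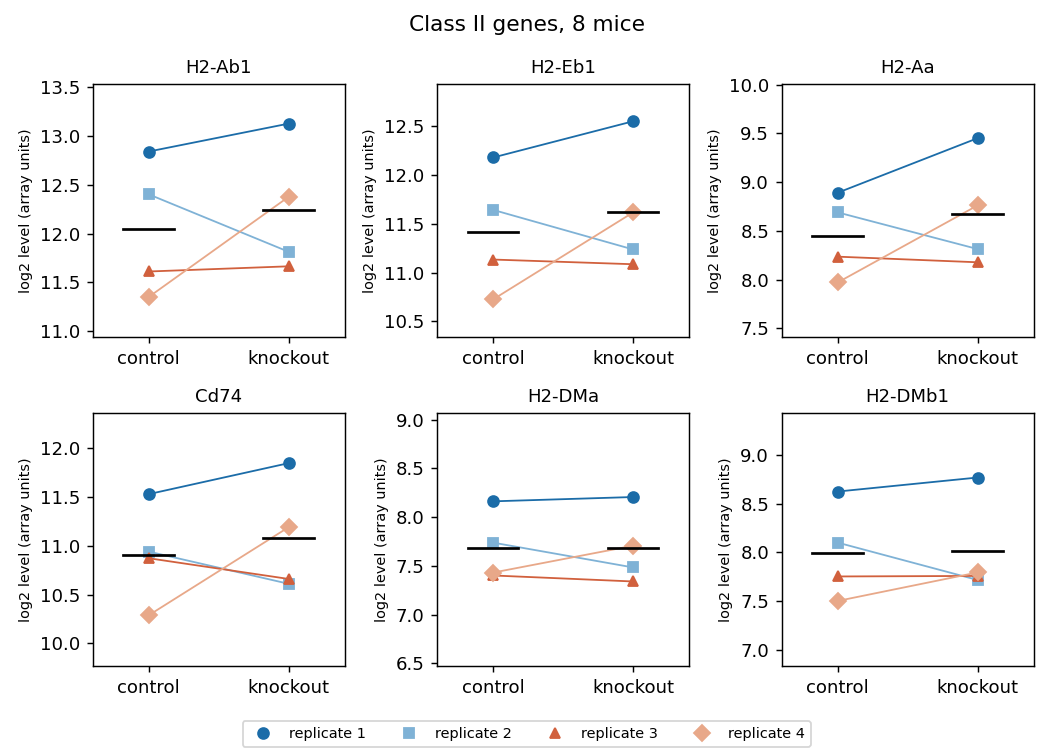
Log2 levels (y axis, array units, the same span in each panel) of 6 class II genes in the 4 control and 4 knockout mice, where a line joins the mice that shared an array and bars are group means. In each panel the line of replicate 4 goes up, that of replicate 2 goes down, and both mice of replicate 1 lie above the other mice of their genotype.

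Set side by side after loess, the classes had similar centres and unlike spread. The median ratio of the 24 class I heavy chain probes was 0.32, 0.05, 0.25 and 0.23 on replicates 1 to 4, or 0.21 ± 0.12 (SD, n = 4). That of the 7 class II probes was 0.29, -0.38, -0.05 and 0.89, or 0.19 ± 0.54 (SD, n = 4). The class I median minus the class II median was 0.03 ± 0.49 (SD, n = 4), well inside the spread between arrays. The medians of all tested probes lay between -0.01 and 0.02 on the 4 arrays. With median centring the spreads were wide in both classes, with class I at 0.16 ± 0.88 and class II at 0.21 ± 1.14 (SD, n = 4). Without replicate 4 the class II median was -0.05 and the difference 0.26, and without replicate 2 they were 0.38 and -0.11, while the class I median was 0.18 to 0.27 whichever array was left out. Within class I, the 3 probes of H2-K1 and H2-D1 had a median of -0.06 ± 0.17, the 2 of the pseudogene H2-K2 one of 0.36 ± 0.30 and the 19 class Ib probes one of 0.24 ± 0.13 (SD, n = 4).

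Markers of cells a liver sample can hold, those that carry class II among them, were read on the same arrays. Each summed level below adds array intensities, so its brightest probes set it and sums of different lists are not on 1 scale. In whole liver, fewer cells of a type and less RNA per cell cannot be told apart. The 12 tested markers of Kupffer cells and macrophages (of 12 on the array) had medians of 0.29, -0.24, -0.26 and -0.00 on replicates 1 to 4, with a summed level of 17800 to 34300 in knockout and 22200 to 28600 in control mice. The 4 tested dendritic cell markers of 8 had medians of 0.02, -0.10, 0.00 and 0.03 and summed levels of 28700 to 32400 against 27800 to 30200, while Xcr1 was above background in 0 of 8 mice and Flt3 in 1. The 3 tested B cell markers of 8 had medians of -0.25, -0.18, -0.04 and 0.14 and summed levels of 529 to 564 against 443 to 670, with Pax5 and Blk above background in 0 of 8 mice. The 5 tested T and NK cell markers of 11 had medians of -0.24, -0.17, -0.10 and 0.08 and summed levels of 6050 to 7540 against 7060 to 7400, with Cd3g, Cd8a, Ncr1 and Klrb1c above background in 0 of 8 mice. The 3 tested markers of monocytes and neutrophils, of 5, had medians of 0.77, -1.17, -0.03 and 0.27, each of them the value of S100a8, and summed levels of 1110 to 2040 against 1120 to 1990. S100a9 had 0.91, -1.99, -0.07 and 0.50, while Plac8, the third, had 0.15, 0.30, 0.01 and -0.10. S100a8 and S100a9 thus had the sign of the class II median on each array, and Plac8 had the opposite sign on replicates 2 to 4. The Kupffer cell list had that sign on replicates 1 to 3 and was at 0 on replicate 4, where class II was highest. Markers of pancreatic acinar cells, which a liver sample can pick up, had medians of 4.20, -3.07, -0.18 and -1.42. The 6 tested hepatocyte markers of 6 had medians of -0.32, -0.12, 0.39 and 0.38 and summed levels of 457000 to 682000 in knockout and 411000 to 624000 in control mice. Alb was the 1 hepatocyte marker under an adjusted p of 0.1, with -0.44, -0.24, 1.20 and 1.24 on the 4 arrays and a fitted ratio of 0.44 ± 0.06 (SE, limma, adjusted p = 0.0595). The sign of the Alb ratio followed the dye, as did that of the list median. The dye term keeps that swing out of the SE. The 6 tested markers of sinusoidal endothelium, of 6, all had fitted ratios below 0, none under an adjusted p of 0.1. Their medians were 0.00, -0.05, -0.20 and -0.12, with summed levels of 16500 to 18700 against 18000 to 20300. Fitted ratios were also below 0 for all 5 tested T and NK cell markers. The Kupffer cell and macrophage list had 9 below 0 and 3 above, and 10417 of 20818 tested probes were below 0. The part of these cells in the class I and class II ratios was not tested.

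**Figure D4:**
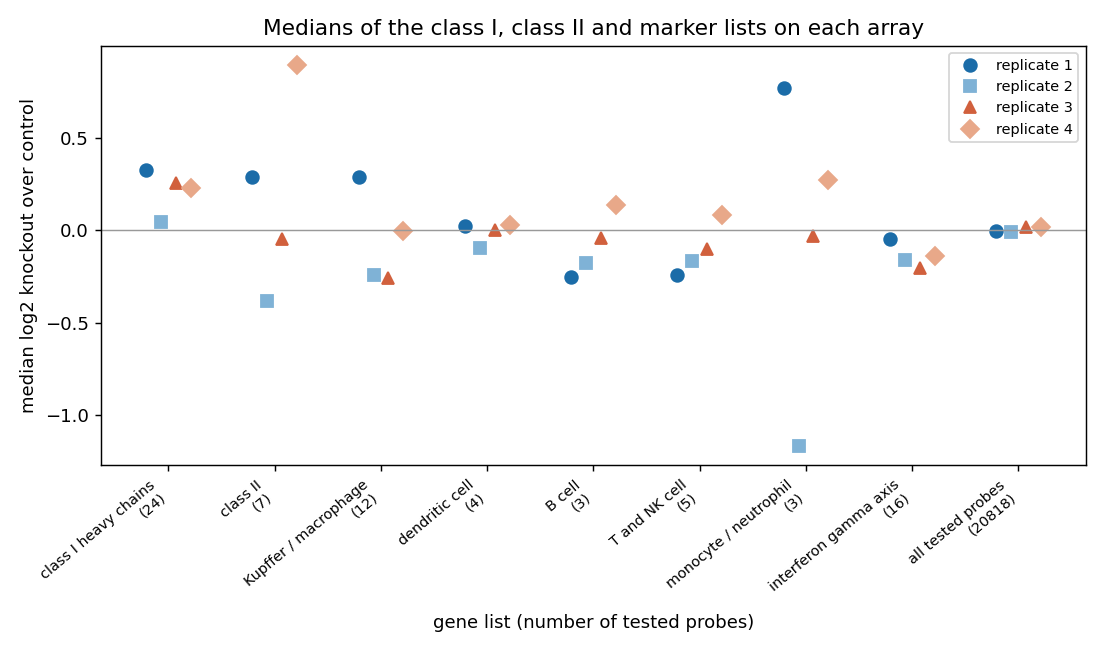
Median log2 knockout over control (y axis) of the tested probes of each list (x axis, number of probes in brackets) on each of the 4 arrays, with 1 symbol per array. The class I medians lie between 0.05 and 0.32, the class II medians between -0.38 and 0.89, and those of all tested probes within 0.02 of 0.

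The other genes of antigen presentation gave 0 calls at an adjusted p of 0.05 in limma among the 37 tested genes, where 0.187% of all tested probes were called. An unadjusted p under 0.05 was found in 7 of the 37 and in 23.2% of all tested probes (12.9% higher and 10.3% lower). By list these were 1 higher and 1 lower in folding and trimming, 1 lower in class II processing and 4 lower in the interferon gamma axis. Of the 5 immunoproteasome and cap genes, which shape peptides for class I, 0 had an unadjusted p under 0.05 and their median was 0.02. Psmb8 had 0.40, -0.26, -0.52 and 0.45. The 5 folding and trimming genes had a median of -0.05, with Canx, a chaperone of new heavy chains, at -0.21 ± 0.06 and Tapbpl at 0.30 ± 0.08 (SE), both short of the threshold (limma, adjusted p = 0.166 and 0.131). The 5 class II processing genes had a median of -0.01, and Lgmn, a lysosomal protease, was the furthest at -0.30 ± 0.06 (SE, limma, adjusted p = 0.104). The 6 tested enhanceosome genes, whose proteins bind the X and Y boxes of MHC promoters, had a median of -0.03, and Rfx5 was above background in 0 of 8 mice.

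Genes of the interferon gamma axis, which raises both classes when it is active, lay mostly below 0. Of 16 tested genes 12 had a fitted ratio below 0, as did 10417 of 20818 tested probes, and the list medians were -0.05, -0.16, -0.21 and -0.14 on the 4 arrays against medians of all probes between -0.01 and 0.02. Ifngr1, the ligand-binding receptor chain, had -0.38, -0.38, -0.21 and -0.17 and a fitted ratio of -0.28 ± 0.05 (SE, limma, adjusted p = 0.0729), which made it the 1 gene of the list under 0.1, where 2.68% of all tested probes were called lower. Irf1, an early target of the pathway, was at 0.27 ± 0.10 (SE), with 0.01, -0.45, 0.64 and 0.87 on the 4 arrays. Igtp and Irgm1, GTPases that interferon gamma induces, ran from 1.05 and 0.52 on replicate 1 to -1.37 and -0.96 on replicate 4.

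Promoter windows of RefSeq (GRCm38.p6, 250 bases before to 50 after a transcription start) were searched on both strands for motifs that MHC promoters are known for. Windows were held for 31 member symbols, 34 windows in all, and not for H2-Ab1, H2-Ea-ps, H2-K2, H2-Bl, H2-Q1, H2-Q5, H2-Q8, H2-T9, H2-T10, H2-T18, H2-T24, Tap2, Cd74, Ciita or Nlrc5, while the neighbour genes H2-Ke2 and H2-Ke6 were not searched. The Y box letters ATTGG were in 30 of the 34 windows and in 37.4% of all 32851 windows. The X box core AGCAAC was in 6 of 34 and 14.8% of all, the interferon-stimulated response element (GAAA, any 2 bases and GAAA again) in 2 of 34 (B2m and H2-T23) and 3.44% of all, and the gamma-activated site TTCNNNGAA in 3 of 34 and 8.3% of all. No 2 matches overlapped in a member window. The windows of H2-Q10 and H2-T3 were among the 4 that held none of these letters. That of H2-Q7, the other gene called higher at the second threshold, held 2 Y box matches. So did those of H2-D1, H2-Q4 and H2-Q6, with fitted ratios of 0.03, 0.01 and 0.01. Whether the motifs go with the ratios was not tested. Shown are H2-Q10 and H2-K1, as the secreted and a classical heavy chain whose ratios differed, and H2-Aa and H2-Eb1, as class II genes that moved together, with matches in capitals. They lie on chromosome 17 at 35469839 to 35470138 (plus strand), 34000284 to 34000583 (minus), 34287774 to 34288073 (minus) and 34305617 to 34305916 (plus).
H2-Q10: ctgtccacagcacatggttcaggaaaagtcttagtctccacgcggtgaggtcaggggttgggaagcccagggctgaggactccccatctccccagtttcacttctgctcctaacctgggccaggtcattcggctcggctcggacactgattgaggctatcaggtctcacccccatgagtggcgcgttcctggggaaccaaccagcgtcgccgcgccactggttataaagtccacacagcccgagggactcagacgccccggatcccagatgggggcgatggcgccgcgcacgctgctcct
H2-K1: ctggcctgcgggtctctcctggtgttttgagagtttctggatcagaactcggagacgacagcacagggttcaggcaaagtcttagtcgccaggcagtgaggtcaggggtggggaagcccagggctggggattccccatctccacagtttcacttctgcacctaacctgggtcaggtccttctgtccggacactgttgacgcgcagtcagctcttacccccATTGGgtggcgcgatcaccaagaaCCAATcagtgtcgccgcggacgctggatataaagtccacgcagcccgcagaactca
H2-Aa: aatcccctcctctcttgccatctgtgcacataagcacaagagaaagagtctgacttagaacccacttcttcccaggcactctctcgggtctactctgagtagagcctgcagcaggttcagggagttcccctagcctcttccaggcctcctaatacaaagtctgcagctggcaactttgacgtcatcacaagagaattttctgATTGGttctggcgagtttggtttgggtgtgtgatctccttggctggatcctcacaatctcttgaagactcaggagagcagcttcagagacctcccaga
H2-Eb1: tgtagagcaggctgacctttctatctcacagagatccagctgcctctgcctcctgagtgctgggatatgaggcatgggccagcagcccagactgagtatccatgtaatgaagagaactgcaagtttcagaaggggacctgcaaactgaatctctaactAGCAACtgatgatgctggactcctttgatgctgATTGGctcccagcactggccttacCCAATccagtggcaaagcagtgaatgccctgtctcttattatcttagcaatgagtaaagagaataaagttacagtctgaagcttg

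H2-K1 held 2 Y box matches where H2-Q10 held 0, H2-Aa held 1 and H2-Eb1 held 2 with 1 X box core. A match is a run of letters in this window and was not tested as a site. Forms of a motif that differ from the searched letters were not looked for, so a window without a match can still hold such a form.

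The neighbour genes that carry an H2- name have no part in antigen presentation. H2-Ke2, a prefoldin subunit, was at -0.02 ± 0.05, and H2-Ke6, a steroid dehydrogenase, at -0.15 ± 0.06 (SE, limma, adjusted p = 0.866 and 0.231). The 4 knockout mice had H2-Ke6 levels of 13.42, 13.61, 13.55 and 13.58, all below the 13.71, 13.66, 13.68 and 13.70 of the control mice. Of all tested probes 5.21% had every knockout mouse below every control mouse.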

How the data were processed

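Per the labels, total liver RNA of each mouse was amplified as cRNA and labelled in Cy3 or in Cy5. The scanner software was Agilent Feature Extraction version 10.7.3.1, per the file headers. The deposited spot files give mean and background intensity per spot and processed intensity, with probe positions on mm9. The authors' deposited value table holds log2 ratios, and all 43020 values per array lay within 0.001 of log2 knockout over control from the processed intensities. Its column medians were -0.05, 0.14, -0.18 and -0.18.

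Background was corrected by normexp (offset 50) in limma 3.58.1 under R 4.3.3, with its parameters fitted without spots marked non-uniform or more than 20 units below background, then loess within arrays. Loess centres each array, so a shift shared by all RNA is not measured. Spots with an outlier mark were left out, though none was a member's. Spots of a probe were averaged and probes of a gene kept apart. Ratios of the 4 arrays were fitted with a dye intercept, which leaves 2 residual degrees of freedom before moderation and keeps differences between dye orientations out of the standard errors. Tests were two-sided. Levels per mouse were set between arrays by Aquantile and are not comparable between probes. The number of arrays limits the precision, and all 4 shared 1 slide and scan.

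Tested on simulated data, the fit called 75 of 100 probes changed 2-fold, 91 of 100 changed 4-fold and 8 of 20633 unchanged ones. Noise was drawn for each probe on its own, from its spread within dye orientations, plus a dye offset. Shifts that many probes share on an array, as the class II probes do, were not simulated. The rates on the real arrays can thus differ. Changes under 2-fold, which the fitted ratios of all members but H2-Q1 were, were not simulated. How often the fit calls changes of that size was thus not measured. Probe sequences were compared by local alignment in Biopython 1.88 (match 1, mismatch -1), and figures were drawn with matplotlib 3.10.9. A planned match of probes to reference proteins was not run. By accession 52 of 63 probes matched RefSeq, and others kept the array's name.

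The members, the lists and the thresholds were chosen with earlier results of these data known. Named were the brightest tested probe of each main gene, the class Ib genes singly or by range, every member under an adjusted p of 0.1, and probes that disagreed between arrays or with each other by set amounts (no 2 tested probes of a gene differed by over 0.5). H2-L and H2-Ea had no probe of that name. Alternatives changed the background correction, the normalization, the dye term, the filter, the way probes were joined, the fit and the arrays used. A plain median centring leaves the dye bias of an array in its ratios.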

Additional observations from a re-analysis of the deposited data

Results flagged for a closer look

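In 3 of the 39 tested member probes 1 array stood apart from the other 3, past a limit set for such gaps. Chance alone passes that limit in about 1 of 20 sets of independent values, so some such probes are expected among 39. The 39 probes share mice and some share sequence, so they are not independent sets. In all 3 flagged probes the array was replicate 1. Tap1 was at 0.41 there and between -0.22 and -0.14 on the others. H2-M2 was at 0.52 against 0.23 to 0.26. The H2-Q10 probe A_55_P1995092 was at 0.65 against 0.28 to 0.34. Tap1 and H2-M2 each had 10 spots on that array, with an SD between spots of 0.04 and 0.03. Without replicate 1 Tap1 was at -0.16 ± 0.07 (SE, limma, adjusted p = 0.326). Replicate 1 was also the array on which the pancreatic acinar markers had a median of 4.20, and their part in these values was not tested.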

How the results depend on the processing

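The number of probes past an adjusted p of 0.05 (39) depended on the processing: 185 with probes above background in all 8 channels, 504 with no filter, 336 with median centring, 153 with no background correction, 73 with an offset of 16, 64 with no dye term, 109 with a trend and robust fit, 10 with the processed signals or the deposited value table, 3665 with separate channels, and 0 with normexp fitted on every spot, with the brightest probe or the mean of the probes of a gene, and without any 1 replicate (0 to 0). No member passed 0.05 under these except with separate channels, where 13 did, all higher, against 10% of all tested probes higher. That fit weighs both channels of a mouse pair with an estimated correlation of 0.452. The test on ratios is itself paired, since each array pairs 1 knockout with 1 control mouse. With median centring 2 of 39 members were above 0 on all 4 arrays, and 3.26% of all tested probes. With no filter, which adds 16 class Ib and 7 class II probes near background, the class I median was 0.0826 and the class II median 0.0147.

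At an adjusted p of 0.1, where 4 members were called, 1 was with no dye term (of 1.73% of all tested probes) or with normexp on every spot (3.78%), 2 with the processed signals or value table (4.9%), 3 with an offset of 16 (6.24%), the brightest probe (5.61%) or the mean of the probes of a gene (5.1%), 5 with no filter (3.81%) or no background correction (7.44%), 6 above background in all 8 channels (7.55%), 7 with a trend and robust fit (7.24%), 10 with median centring (9.3%), 14 with separate channels (26.5%) and 0 without any 1 replicate (0% to 1.06%). The 2 with the processed signals were H2-T3 and the dimmer Nlrc5 probe.

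Signs turned for genes none of which passed a threshold, H2-Aa (0.23), H2-Eb1 (0.20), H2-Ab1 (0.19) and Cd74 (0.17) among them. H2-DMa was at -0.031 with the processed signals or the value table, -0.0212 with median centring, -0.0016 with no background correction and -0.0159 with normexp on every spot, and H2-DMb1 at -0.0023, -0.011 and -0.0183 with the processed signals or value table, median centring and normexp on every spot. Tap2 was at 0.0203 with median centring. With 1 array left out, H2-Aa ran from -0.0049 to 0.46, H2-Ab1 from -0.0492 to 0.44, Cd74 from -0.11 to 0.45, H2-Eb1 from -0.0326 to 0.44, H2-DMa from -0.0833 to 0.0853, H2-DMb1 from -0.12 to 0.15, H2-D1 from -0.018 to 0.0865, H2-Q4 from -0.0357 to 0.0493, H2-Q6 from -0.10 to 0.12, H2-T10 from -0.17 to 0.0217, H2-T24 from -0.0664 to 0.28, Tap1 from -0.16 to 0.11 and Tap2 from -0.22 to 0.15. The cause was not tested. Of the other comparisons of single genes with an alternative, 488 kept direction and side of the threshold and 10 kept direction and passed it, all 10 with separate channels.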
